A study of Mus musculus with 3 samples.

Results

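Imprinted genes were examined in 3 RNA-Seq libraries of mouse blastocysts. A list of 43 genes was taken by symbol from the deposited count table of 24063 genes, and all 43 were found in it. It holds 41 autosomal imprinted genes and the pair Zfp57 and Trim28, which keep imprints after fertilization and are not imprinted themselves. The study set NOD, a mouse strain that develops autoimmune diabetes, beside B6 (C57BL/6), which does not, and asked whether gene expression already differs before implantation. The B6 group was 1 library and the NOD group 2 libraries (NOD 1 and NOD 2), all of untreated embryos, and the labels name no engineered allele. Per the labels each library was made from whole blastocysts with the SMART-Seq V4 low-input kit, whereas the study's methods describe inner cell masses (ICMs) isolated and stored singly, so values are given for blastocysts and not for one of their tissues. The sex and litter of the embryos and, for whole blastocysts, the number behind each library are not given in the sources used here, so the p-values measure only the spread between these libraries.

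An imprinted gene is expressed mainly or only from the copy inherited from one parent. For most of these genes the choice is set by DNA methylation laid down in the egg or sperm at an imprinting control region, which often governs a cluster of genes that includes a long non-coding RNA. Zfp57, a KRAB zinc finger protein that binds the methylated motif TGCCGC, and Trim28, the corepressor that it recruits, protect that methylation while the rest of the genome is demethylated in the early embryo. A smaller group is silenced on the maternal copy by the histone mark H3K27me3 from the egg. Many imprinted genes act in growth and in the placenta. The counts were not split by parental copy, so the values are the sum of both copies, and they do not show whether imprinting was kept or lost.

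Of the 43 genes, 36 had enough counts to be tested. In NOD 5 were higher than in B6, namely Snrpn, Phlda2, Gnas, Impact and Slc38a4. Another 4 were lower, namely Kcnq1ot1, Cd81, Nespas and Sfmbt2, and 27 did not pass the test. A gene was called when the p-value of edgeR's quasi-likelihood test, adjusted over all 14456 genes tested, was under 0.05 and the fold change at least 2. The genes called higher were thus 13.9% of those tested, where 10.3% of all genes tested were called higher, and those called lower were 11.1%, where the share over all genes was 7.39%. These shares are close to the background and say nothing particular about imprinted genes as a group. Both NOD libraries lay above B6 for 14 of the 36 genes and below it for 18, and 4 had B6 within the NOD range. Over all genes tested, both NOD libraries lay above B6 for 45.3% and below it for 39.4%. With 1 library against 2 an exact permutation test of a single gene cannot go below p = 0.333, so that the calls lean on the spread shared across genes and on the assumption that B6 varies like NOD.

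The median log2 fold change (NOD minus B6) was -0.14 over the 36 genes and 0.15 without Zfp57 and Trim28, and 0.26 over all genes tested. The sign for the listed genes was not stable, with 0.36 without a filter on low counts (41 genes) and 0.04 without NOD 2. Genes labelled as maternally or paternally expressed had close medians. The labels come from textbook knowledge, and the counts do not show which copy was expressed in these embryos. This holds also for Gnas, whose exons are in part shared by transcripts that differ in parental expression. Of 12 maternally expressed genes tested, 2 were higher and 1 was lower in NOD, with a median of 0.16. Of 22 paternally expressed genes tested, 3 were higher and 3 were lower, with a median of 0.15. The shares called higher and lower were 16.7% and 8.33% of the maternal genes and 13.6% and 13.6% of the paternal genes. Over all genes tested they were 10.3% and 7.39%, and counts this small say nothing particular about either class.

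**Figure D1:**
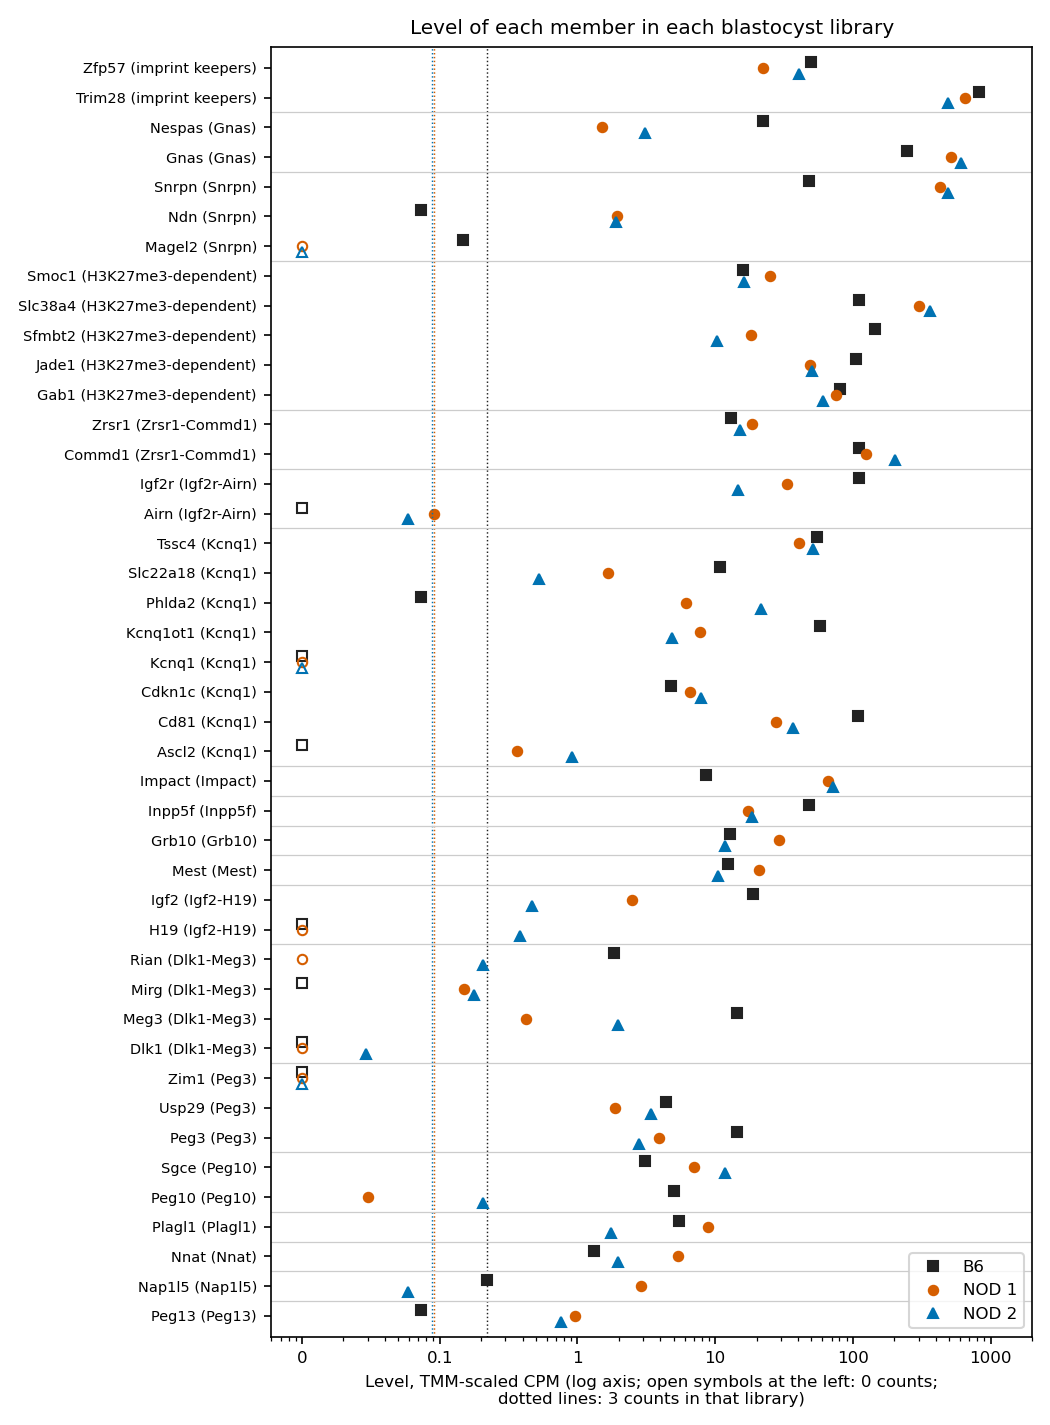
Level of each of the 43 genes in each library (one symbol per library, TMM-scaled CPM on a log axis, grouped by imprinted cluster, open symbols at the left for 0 counts, dotted lines at 3 counts of each library). Snrpn lies at 48.4 CPM in B6 and at 429 and 489 CPM in NOD 1 and NOD 2, whereas Sfmbt2 and Kcnq1ot1 lie lower in both NOD libraries than in B6.

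Where 3 values follow one another they stand in the order B6, NOD 1 and NOD 2. Counts on genes summed to 12505685 in B6 and to 33891715 and 36171013 in the NOD libraries, so that B6 sets the precision. A single count was worth 0.0734 CPM (counts scaled to library size with edgeR's TMM factors) in B6 and 0.0303 and 0.0294 CPM in NOD 1 and NOD 2. A count of 0 allows a level of up to 3 counts, which is 0.220 CPM in B6, 0.0908 CPM in NOD 1 and 0.0882 CPM in NOD 2, and covers counting error only. The summed markers of the ICM and epiblast were at 1145, 1173 and 1416 CPM in B6, NOD 1 and NOD 2, with 3 of 11 genes called higher (Tdgf1, Utf1 and Zfp42) and 1 lower (Sox2). Of the 11, 7 lay above B6 in both NOD libraries and 4 below, 8 had an unadjusted p under 0.05 and the median was 1.23 on the log2 scale. Over all genes tested, 45.3% lay above and 39.4% below B6 in both NOD libraries, and 39.9% had an unadjusted p under 0.05. Without Tfcp2l1, which was at 636, 352 and 308 CPM and left out after its values were seen, the sums were 509, 820 and 1108 CPM. Of 12 tested markers of the trophectoderm, the outer layer that forms the placenta, 7 lay below B6 in both NOD libraries and 4 above, 7 had an unadjusted p under 0.05 and the median log2 fold change was -0.64, with 1 called higher (Dppa1) and 0 lower. Their sums were 3701, 3884 and 3192 CPM, with Krt18 at 1464, 812 and 852 CPM and Krt8 at 558, 324 and 318 CPM. Dppa1 was at 209, 1404 and 1034 CPM. Without Dppa1, a choice made after its values were seen, the sums were 3492, 2480 and 2158 CPM. Markers of the primitive endoderm summed to 810, 794 and 1008 CPM, with 1 of 8 tested called higher (Pdgfra, log2 fold change 2.13) and 1 lower (Gata6, -1.80, with 385, 91.5 and 130 CPM). Of these 8, 3 lay above B6 in both NOD libraries, 2 below, and 3 had an unadjusted p under 0.05. Dab2, the largest part of both NOD sums at 371, 651 and 824 CPM, was not called (0.99 ± 0.25, adjusted p = 0.0571). The summed oocyte markers were at 35.4, 13.4 and 9.40 CPM and edgeR called 0 of 8 tested, of which 2 had an unadjusted p under 0.05 in opposite directions. These were Zp3, the largest single part of each sum at 20.5, 8.05 and 4.20 CPM, and Figla, which had 0, 29 and 47 counts. Markers of leukocytes summed to at most 1.03 CPM in any library, and those of cumulus and granulosa cells to at most 9.53 CPM, most of it Star, with 6 of 11 at 0 in every library. Those of uterine or oviduct epithelium and stroma summed to 1165, 1639 and 1732 CPM, of which Epcam, a gene of many epithelia and of the embryo itself, made 1165, 1629 and 1726 CPM, and 5 of the 12 were at 0 in every library. Of the 5 tested 3 lay above B6 in both NOD libraries (Epcam, Muc1 and Col1a1) and 0 below, edgeR called 0, and 2 had an unadjusted p under 0.05 (Epcam, and Muc1 with 7, 283 and 99 counts). The part of these marker lists in the results on imprinted genes was not tested. In bulk samples, fewer cells of a type and less RNA per cell cannot be told apart.

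Compared per length of transcript, the most abundant of the 43 genes in B6 were Trim28 at 254 FPKM, Gnas at 143 FPKM and Commd1 at 136 FPKM. Gnas and Snrpn led in both NOD libraries, where Gnas had 298 and 351 FPKM and Snrpn 219 and 250 FPKM. Snrpn thus moved from rank 7 in B6 to rank 2 in NOD 1 and NOD 2. Commd1 (154 and 247 FPKM) and Trim28 (201 and 151 FPKM) followed in the NOD libraries, and their order was not the same in the 2 libraries. At the other end, Kcnq1 and Zim1 had 0 counts in every library, and 26 of the 36 genes tested reached 10 CPM in at least 1 library.

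In the Snrpn domain on chromosome 7 (the Prader-Willi region of human), where the listed genes are paternally expressed, Snrpn was higher in NOD. Snrpn (chr7:59982502-60005156, minus strand, mm10) encodes a core protein of the spliceosome (SmN) that replaces its close relative SmB in neurons. It was counted 659 times in the B6 library, 14177 times in NOD 1 and 16649 times in NOD 2, giving 48.4 CPM for B6 against a NOD mean of 459 ± 42.7 CPM (SD, n = 2). The NOD libraries differed from each other by 1.14 times and both lay far above B6, with a log2 fold change of 3.25 ± 0.27 (SE, adjusted p = 0.0196). Snurf, a short upstream reading frame on the same RNA, is listed as its own gene with 668, 14353 and 16845 counts. The 2 listed genes overlap over 22655 bases on one strand, so their counts are not independent, and 21.7% of the 50-base words of the Snrpn transcripts also occur in transcripts of other genes in the GENCODE M21 annotation.

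Ndn, a MAGE family protein of the same domain, was counted once in the B6 library, 64 times in NOD 1 and 65 times in NOD 2. The ratio of NOD to B6 was 26.2 (95% counting interval 4.62 to 1043), and the gene did not pass the test (log2 fold change 4.63 ± 1.69, adjusted p = 0.113). Magel2, its neighbour, had 2 counts in B6 and 0 in both NOD libraries and was not tested. At this depth no difference was detectable for Magel2.

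The promoter window of Snrpn is shown because, of the called genes with a window (all but Nespas and Impact), it alone holds the Zfp57 motif. It runs from 250 bases before to 50 bases after the RefSeq start on the minus strand of GRCm38 (mm10), chr7:60005150-60005449, with every CpG in capitals.
Snrpn: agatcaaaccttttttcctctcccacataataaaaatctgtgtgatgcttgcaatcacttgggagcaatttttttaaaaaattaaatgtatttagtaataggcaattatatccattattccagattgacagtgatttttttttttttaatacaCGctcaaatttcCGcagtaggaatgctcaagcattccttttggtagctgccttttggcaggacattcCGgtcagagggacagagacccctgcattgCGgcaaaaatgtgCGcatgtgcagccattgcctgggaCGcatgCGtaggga
It holds 7 CpG, and the reverse complement of the motif, GCGGCA, once at position 249 counted from its 5′ end. The RefSeq start lies 43 bases from the start of the counted transcript.

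In the Kcnq1 domain on chromosome 7 the non-coding RNA was lower in NOD, and its neighbours differed from one another in direction. Kcnq1ot1 (chr7:143213111-143296547, minus strand) is a long antisense RNA made from the paternal copy, which silences the neighbouring maternally expressed genes in cis. It was counted 783 times in the B6 library, 256 times in NOD 1 and 165 times in NOD 2, giving 57.5 CPM for B6 against a NOD mean of 6.30 ± 2.05 CPM (SD, n = 2), and the log2 fold change came to -3.19 ± 0.46 (adjusted p = 0.0244). Both NOD libraries lay below B6, and they differed from each other by 1.60 times. Its host Kcnq1, a potassium channel gene on the opposite strand, had 0 counts in every library.

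Phlda2 (chr7:143501548-143502524, minus strand), a maternally expressed gene that restrains growth of the placenta, was counted once in the B6 library, 204 times in NOD 1 and 731 times in NOD 2. The ratio of NOD to B6 was 190 (counting interval 34.0 to 7509), and the fitted log2 fold change was 7.47 ± 1.5 (adjusted p = 0.0391). Both NOD libraries lay above B6 but they differed from each other by 3.48 times. Cd81 (chr7:143052750-143067930, plus strand), a tetraspanin of the cell surface, was counted 1477 times in the B6 library, 915 times in NOD 1 and 1254 times in NOD 2, which is 108 CPM against 32.3 ± 6.48 CPM (SD, n = 2), and the log2 fold change was -1.75 ± 0.35 (adjusted p = 0.0393). Both NOD libraries lay below B6.

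The other maternally expressed genes of the domain were not called. Slc22a18, an organic cation transporter, had 10.8 CPM in B6 and 1.66 and 0.529 CPM in NOD 1 and NOD 2, and the log2 fold change was -3.29 ± 0.95 (adjusted p = 0.0726). Cdkn1c, the cyclin-dependent kinase inhibitor p57, had 4.77 CPM in B6 and 6.56 and 7.85 CPM in NOD (0.59 ± 0.67, adjusted p = 0.525). Tssc4 had 54.7 CPM in B6 and 40.8 and 51.1 CPM in NOD (-0.25 ± 0.36, adjusted p = 0.622). Ascl2, a transcription factor of trophoblast progenitors, had 0 counts in B6 and 12 and 31 in NOD (adjusted p = 0.162). Its level was 1.65 times the B6 library's floor of 3 counts in NOD 1 and 4.14 times in NOD 2. These multiples leave out the counting error of the NOD counts. Across the domain, 1 of 7 genes tested was thus called higher and 2 lower, beside 10.3% and 7.39% of all genes tested, and counts this small say nothing particular about the domain.

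**Figure D2:**
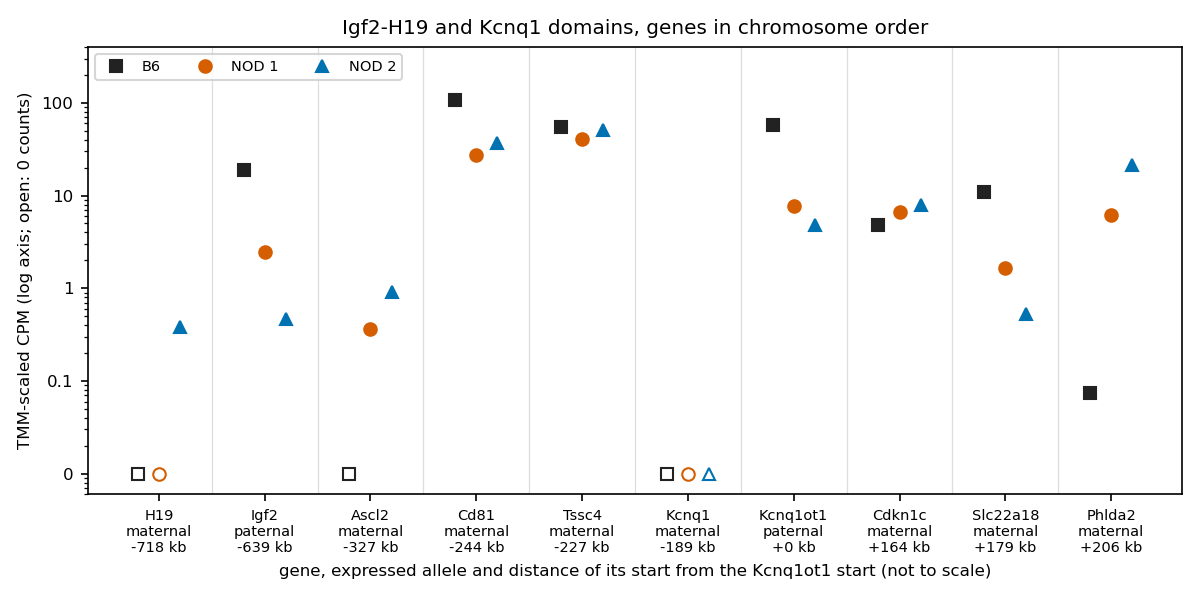
Levels in the Igf2-H19 and Kcnq1 domains, with genes in chromosome order from left to right (vertical log axis, TMM-scaled CPM; square B6, circle NOD 1, triangle NOD 2; open symbols for 0 counts). Cd81 and Kcnq1ot1 lie lower and Phlda2 lies higher in both NOD libraries, and the genes between them do not move in one direction.

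The Kcnq1ot1 promoter window is shown since this RNA starts in the imprinting control region of the domain. It lies at chr7:143296498-143296797 (GRCm38, minus strand), is written 5′ to 3′ with each CpG in capitals, and starts transcription 250 bases in.
Kcnq1ot1: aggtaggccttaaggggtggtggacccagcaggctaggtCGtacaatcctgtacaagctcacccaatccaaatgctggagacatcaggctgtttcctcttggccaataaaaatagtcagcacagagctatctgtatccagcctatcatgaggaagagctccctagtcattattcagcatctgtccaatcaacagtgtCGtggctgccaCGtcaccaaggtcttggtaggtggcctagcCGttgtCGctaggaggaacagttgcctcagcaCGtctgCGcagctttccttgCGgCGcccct
It holds 9 CpG and 0 matches to TGCCGC or its complement. The Phlda2 and Cd81 windows hold 26 and 23 CpG and neither has the motif.

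No gene of the Igf2-H19 and Igf2r-Airn domains was called, and Igf2 and Igf2r had their lower values in NOD. Igf2, a growth factor expressed from the paternal copy, was counted 257 times in the B6 library, 82 times in NOD 1 and 16 times in NOD 2. That is 18.9 CPM in B6 and 2.48 and 0.470 CPM in NOD, and although both NOD libraries lay below B6 their own values differed by 5.28 times (log2 fold change -3.67 ± 1.04, adjusted p = 0.0697, not called). In GENCODE M21, 61.2% of the 50-base words of Igf2 transcripts also occur in transcripts of other genes. H19, the maternally expressed non-coding RNA of the domain, had 0, 0 and 13 counts and was not tested. Igf2r, the receptor that takes IGF2 to the lysosome, had 1509, 1101 and 498 counts in B6, NOD 1 and NOD 2, which is 111 CPM against 33.3 and 14.6 CPM (-2.21 ± 0.55, adjusted p = 0.0553, not called). Its antisense RNA Airn, which overlaps it on the other strand, had 0, 3 and 2 counts.

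The Gnas domain on chromosome 2 held 1 gene called in each direction. Gnas (chr2:174330089-174346742, plus strand) encodes the stimulatory G protein alpha subunit, which activates adenylyl cyclase. It was counted 3373 times in the B6 library, 17035 times in NOD 1 and 20713 times in NOD 2, giving 248 CPM for B6 against a NOD mean of 562 ± 66.0 CPM (SD, n = 2), and the log2 fold change was 1.18 ± 0.24 (adjusted p = 0.0394). The NOD libraries differed by 1.18 times and both lay above B6. The counted exons are in part shared by other transcripts of the locus that differ in their parental expression, and 1 value is listed for all of them. Nespas (chr2:174281237-174295436, minus strand), a paternally expressed antisense RNA of the same locus, was counted 301 times in the B6 library, 50 times in NOD 1 and 106 times in NOD 2, giving 22.1 CPM for B6 against a NOD mean of 2.31 ± 1.13 CPM (SD, n = 2), so it was lower, and the log2 fold change was -3.25 ± 0.68 (adjusted p = 0.0408). Reads were counted on both strands together, and 38.5% of the exon bases of Nespas lie in exons of other genes, Gnas transcripts among them. For those bases the sense and antisense RNAs cannot be told apart.

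Of 5 genes whose imprint rests on H3K27me3 from the egg, 1 was higher and 1 was lower, beside 10.3% and 7.39% of all genes tested. Counts this small say nothing particular about the group. Slc38a4 (chr15:96994823-97055956, minus strand), an amino acid transporter of the placenta, was counted 1505 times in the B6 library, 9934 times in NOD 1 and 12317 times in NOD 2, giving 110 CPM for B6 against a NOD mean of 331 ± 43.4 CPM (SD, n = 2), and the log2 fold change came to 1.58 ± 0.27 (adjusted p = 0.0299). Both NOD libraries lay above B6 and they differed by 1.2 times. Sfmbt2 (chr2:10372436-10595253, plus strand), a Polycomb-related protein needed in trophoblast, was counted 1974 times in the B6 library, 598 times in NOD 1 and 352 times in NOD 2, giving 145 CPM for B6 against a NOD mean of 14.2 ± 5.48 CPM (SD, n = 2), and the log2 fold change came to -3.35 ± 0.44 (adjusted p = 0.0231). Each NOD library lay far below B6, and they differed from each other by 1.75 times. The microRNA genes listed inside Sfmbt2 had at most 2 counts in any library.

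The other genes of the group did not pass the test. Jade1, a subunit of the HBO1 acetyltransferase complex, had 106 CPM in B6 and 49.2 and 50.7 CPM in NOD (-1.09 ± 0.31, adjusted p = 0.0690). Gab1, an adaptor of receptor tyrosine kinases, had 81.0 CPM in B6 and 75.5 and 60.3 CPM in NOD (-0.25 ± 0.33, adjusted p = 0.585). Smoc1, a secreted matrix protein, had 15.9 CPM in B6 and 25.2 and 16.3 CPM in NOD (0.38 ± 0.50, adjusted p = 0.589). Since Slc38a4, Sfmbt2, Phlda2 and Ascl2 are known from trophoblast, the trophectoderm values above stand beside them. The 7 markers below B6 in both NOD libraries were Cdx2, Eomes, Tfap2c, Tead4, Gata3, Krt8 and Krt18, none of them called. Cdx2 was at 84.2, 66.9 and 53.8 CPM, Eomes at 89.1, 27.2 and 35.2 CPM, and Tfap2c at 237, 81.7 and 120 CPM. Krt7, Dppa1, Id2 and Hand1 lay above B6 in both, and Elf5, with 0, 7 and 10 counts, was not tested. The part of these markers in the results on imprinted genes was not tested.

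The promoters of the H3K27me3 pair are shown to set side by side 2 genes of one imprinting mode that were called in opposite directions. Both windows are GRCm38, written 5′ to 3′ with each CpG in capitals, Sfmbt2 at chr2:10372186-10372485 on the plus strand and Slc38a4 at chr15:97055907-97056206 on the minus strand.
Sfmbt2: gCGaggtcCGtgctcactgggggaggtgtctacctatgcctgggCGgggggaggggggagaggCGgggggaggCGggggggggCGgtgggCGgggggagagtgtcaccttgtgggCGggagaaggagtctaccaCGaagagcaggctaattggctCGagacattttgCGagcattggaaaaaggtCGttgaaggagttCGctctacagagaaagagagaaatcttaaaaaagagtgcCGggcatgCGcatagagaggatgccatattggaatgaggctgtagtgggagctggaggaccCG
Slc38a4: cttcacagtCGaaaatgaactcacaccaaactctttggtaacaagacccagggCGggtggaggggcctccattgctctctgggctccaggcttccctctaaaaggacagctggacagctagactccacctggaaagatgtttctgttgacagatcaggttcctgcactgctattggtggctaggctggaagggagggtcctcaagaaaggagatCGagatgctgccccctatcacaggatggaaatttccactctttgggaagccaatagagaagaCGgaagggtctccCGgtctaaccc
The Sfmbt2 window holds 16 CpG and that of Slc38a4 holds 5, and neither holds the motif TGCCGC on either strand.

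Over all promoter windows of 300 bases in the RefSeq table, 11.6% of 32851 hold TGCCGC or its reverse complement GCGGCA. Of the 33 listed genes with a window within 100 bases of the counted start, 9 hold it (27.3%), namely Grb10, Mest, Nap1l5, Nnat, Zim1, Plagl1, Snrpn, Commd1 and Trim28. Of these 9 genes 8 were tested, with 1 called higher (Snrpn) and 0 lower, and of the 24 without it 20 were tested, with 3 called higher and 3 lower, beside 10.3% and 7.39% of all genes tested. The windows of the listed genes also hold more CpG, with a median of 17 against 7 over all windows, and a match is only a match of letters.

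Impact, a paternally expressed regulator of the translation kinase GCN2, was higher in NOD. It was counted 117 times in the B6 library, 2165 times in NOD 1 and 2454 times in NOD 2, giving 8.59 CPM for B6 against a NOD mean of 68.8 ± 4.68 CPM (SD, n = 2), and the log2 fold change was 3.0 ± 0.41 (adjusted p = 0.0237). The NOD libraries differed by 1.10 times. Of the 5 genes called higher, Impact, Snrpn, Gnas and Slc38a4 thus differed between the NOD libraries by 1.10 to 1.2 times and Phlda2 by 3.48 times.

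**Figure D3:**
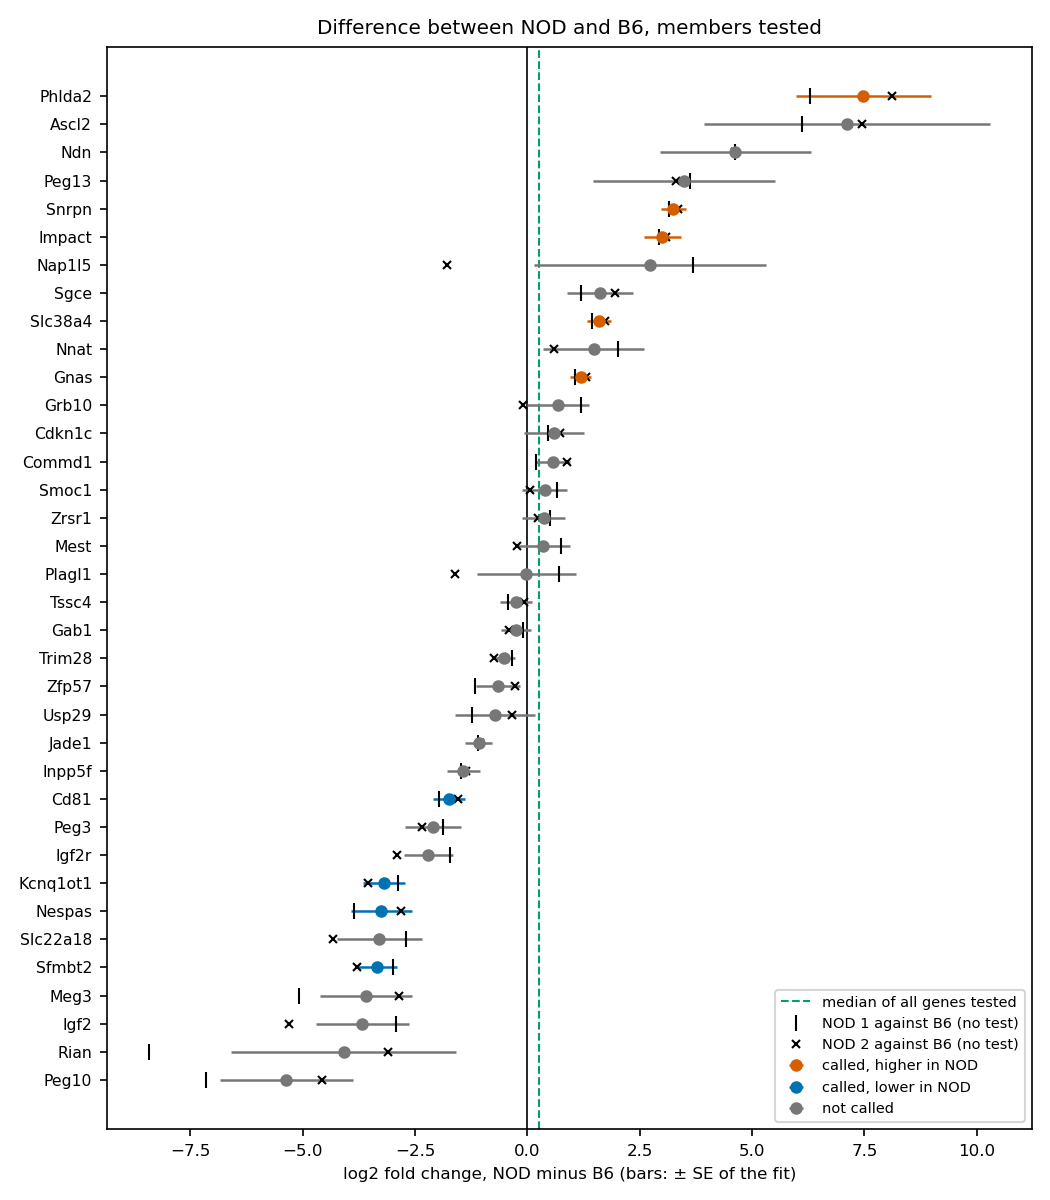
Log2 fold change (NOD minus B6) of the 36 genes tested, in order of size. Points give the edgeR fit with its SE as bars, ticks and crosses give NOD 1 and NOD 2 each against B6 with no test, and the dashed line is the median of all genes tested at 0.26. The 9 genes called are coloured, and several genes with larger values, such as Ascl2 and Peg10, have wide bars.

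No gene of the Dlk1-Meg3 domain on chromosome 12 was called. Meg3, a maternally expressed non-coding RNA, was counted 198 times in the B6 library, 14 times in NOD 1 and 67 times in NOD 2. These counts correspond to 14.5, 0.424 and 1.97 CPM, and the log2 fold change was -3.60 ± 1.02 (adjusted p = 0.0710, not called), and the NOD libraries differed by 4.65 times. Rian, which hosts small nucleolar RNAs downstream of Meg3, had 25, 0 and 7 counts, and Mirg, which hosts microRNAs, had 0, 5 and 6. The microRNA gene Mir369 inside Mirg is listed with 46, 7 and 2 counts (adjusted p = 0.0817). Dlk1, a transmembrane protein expressed from the paternal copy, had 0, 0 and 1 count, and its listed transcript is a non-coding form.

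Taking the non-coding RNAs by their RefSeq identifier, 9 of the 43 genes were listed in this way. Dlk1, a protein-coding gene listed by a non-coding form, was left out, and of the other 8 genes 5 were tested. Of these edgeR called 0 higher and 2 lower (Kcnq1ot1 and Nespas), with 3 at an unadjusted p under 0.05. The 3 not tested were Mirg, Airn and H19, which had counts in NOD only, as given above. The median of the 5 tested, as a log2 fold change, was -3.25, and 4 of them lay below B6 in both NOD libraries. The exception was Peg13, with 1 count in B6 and 32 and 26 in NOD, a NOD to B6 ratio of 11.8 (counting interval 2.03 to 473, adjusted p = 0.253). Over all 1058 tested genes with such an identifier, 58 were called higher and 74 lower, 347 (32.8%) had an unadjusted p under 0.05, 479 lay above and 438 below B6 in both NOD libraries, and the median was 0.38. Among them Rn45s, the precursor of ribosomal RNA, named here after its values were seen, was at 2434 CPM in B6 and at 65.8 and 38.7 CPM in NOD (-5.54 ± 0.37, adjusted p = 0.0190), and its part in these results was not tested. Peg13 lies within Trappc9 on the same strand in the table, and Trappc9, a trafficking protein gene that is itself imprinted in brain, was lower in NOD, with 454, 180 and 175 counts (-2.65 ± 0.45, adjusted p = 0.0304).

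In the Peg3 domain on chromosome 7 no gene was called. Peg3, a zinc finger protein gene, had 195, 129 and 95 counts, or 14.3 CPM in B6 and 3.90 and 2.79 CPM in NOD (-2.09 ± 0.62, adjusted p = 0.0773). Its antisense transcript Peg3os had 145, 66 and 38 counts (adjusted p = 0.0694). Usp29, which starts 164 bases from Peg3 in the opposite direction, had 60, 62 and 117 counts (-0.73 ± 0.89, adjusted p = 0.559), and neither gene of this shared start region passed the test. Zim3, which overlaps Usp29 on the other strand, had 7, 16 and 53 counts.

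The Peg10 and Sgce pair on chromosome 6 shares a start region, with 102 bases between the 2 starts, and both are expressed from the paternal copy. Peg10, a retrotransposon-derived gene needed for the placenta, had 69, 1 and 7 counts (-5.37 ± 1.49, adjusted p = 0.0634). Sgce, the epsilon-sarcoglycan gene, had 42, 233 and 403 counts (1.61 ± 0.74, adjusted p = 0.173). Both NOD libraries lay below B6 for the first gene and above it for the second, and neither was called.

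The remaining imprinted genes were not called. Inpp5f, a phosphoinositide phosphatase, had 48.0 CPM in B6 and 17.3 and 18.5 CPM in NOD (-1.43 ± 0.37, adjusted p = 0.0600). Commd1, an adaptor of copper and endosome trafficking, had 110 CPM in B6 and 125 and 201 CPM in NOD (adjusted p = 0.309). Zrsr1, a splicing factor gene that lies inside Commd1 on the opposite strand, had 13.1 CPM in B6 and 18.5 and 15.2 CPM in NOD (adjusted p = 0.596). Grb10, an adaptor that dampens insulin signalling, had 12.8 CPM in B6 and 29.2 and 11.8 CPM in NOD. Mest, a hydrolase-like protein, had 12.3 CPM in B6 and 20.7 and 10.5 CPM in NOD. For both of these B6 lay between the NOD libraries. Copg2, which overlaps Mest on the other strand and shares 23.1% of the Mest exon bases in GENCODE M21, had 736, 1337 and 889 counts.

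Plagl1, a zinc finger transcription factor, had 74, 293 and 60 counts in B6, NOD 1 and NOD 2, which is 5.43 CPM against 8.86 and 1.76 CPM (log2 fold change -0.03 ± 1.10). Nnat, a small membrane protein, had 18, 178 and 67 counts (1.47 ± 1.13, adjusted p = 0.366), and Blcap, which overlaps it on the other strand, had 458, 1562 and 1682. Nap1l5, a nucleosome assembly protein-like gene, had 3, 96 and 2 counts, so that NOD 1 stood 49.4 times above NOD 2, and the ratio of NOD to B6 was 6.64 (counting interval 2.2 to 32.7). It lies in an intron of Herc3, a ubiquitin ligase gene on the opposite strand, which had 1, 197 and 141 counts and was higher in NOD (adjusted p = 0.0432).

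The NOD libraries differed from each other for many of these genes. Of the 36 genes tested, 13 (36.1%) differed by 2-fold or more between NOD 1 and NOD 2, where 26.2% of all genes tested did. The median size of the log2 ratio between them was 0.71 for the listed genes and 0.47 for all genes. At an unadjusted p under 0.05, 18 of the 36 genes passed (50%), where 39.9% of all genes tested did.

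**Figure D4:**
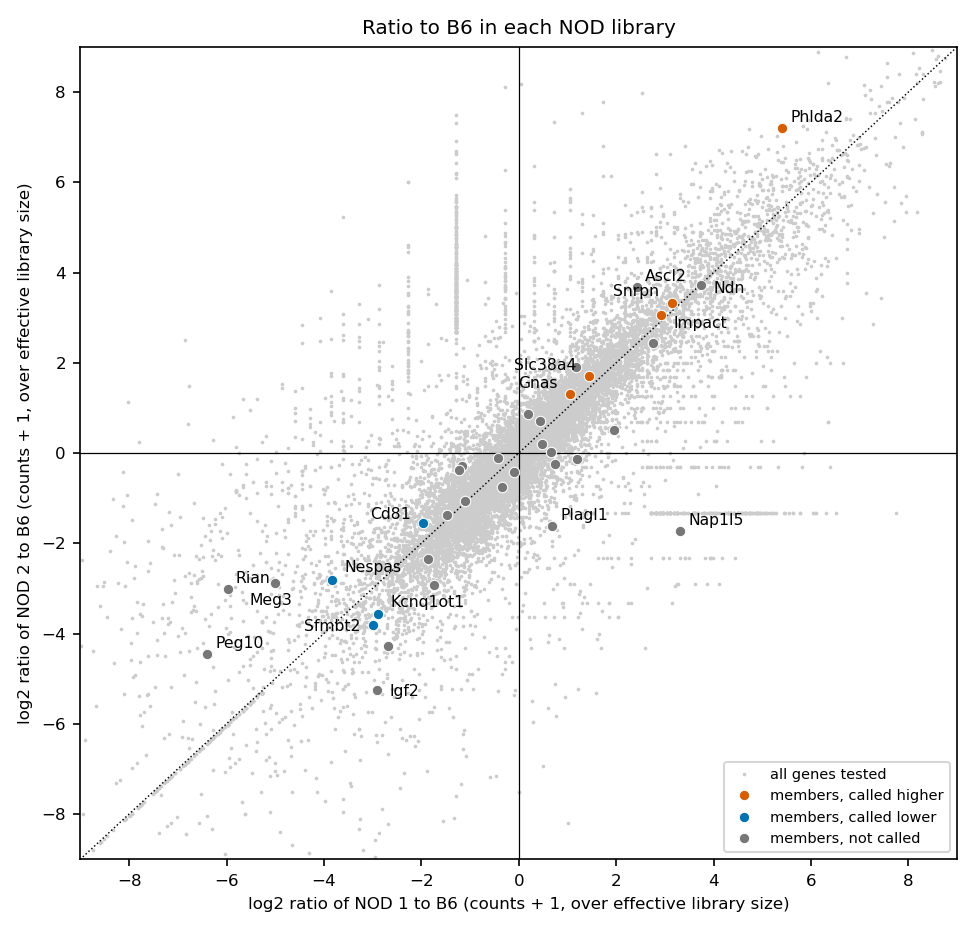
Log2 ratio to B6 of NOD 1 (horizontal) and NOD 2 (vertical) for all 14456 genes tested (grey) and the listed genes (coloured by call; 1 count added to each library before scaling). The 9 genes called lie near the dotted line of equal ratios, with Phlda2 and Nespas farthest from it, whereas Plagl1 and Nap1l5 lie on opposite sides of 0 in the 2 libraries.

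The pair that keeps imprints did not pass the test. Zfp57 had 677, 735 and 1382 counts, or 49.7 CPM in B6 and 22.2 and 40.6 CPM in NOD, and the log2 fold change was -0.66 ± 0.48 (adjusted p = 0.349). Trim28 had 11167, 21430 and 16575 counts, or 819 CPM in B6 and 648 and 487 CPM in NOD (-0.53 ± 0.25, adjusted p = 0.184). For both genes each NOD library lay below B6.

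From a list of 36 other genes that set, keep or read imprints, 34 were tested, of which 3 were higher and 3 lower in NOD, with a median log2 fold change of -0.07. That is 8.82% in each direction, close to the 10.3% and 7.39% of all genes tested, so the genes below are given as single genes. Dppa3 (also called Stella), which shields methylation in the egg and zygote, was higher, at 1741 CPM in B6 and 5188 and 6125 CPM in NOD (1.70 ± 0.19, adjusted p = 0.0205). Zfp42 (Rex1), which binds imprinted loci such as Peg3 and Nespas, was higher at 61.6 CPM in B6 and 155 and 221 CPM in NOD (1.61 ± 0.35, adjusted p = 0.0441). Cbx1, a heterochromatin protein, was higher at 10.8 CPM in B6 and 133 and 130 CPM in NOD (3.61 ± 0.35, adjusted p = 0.0196).

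The genes lower in NOD were methyltransferases and a second heterochromatin protein. Dnmt1, the enzyme that copies DNA methylation after replication, had 117 CPM in B6 and 42.6 and 29.6 CPM in NOD (-1.70 ± 0.37, adjusted p = 0.0440). Ehmt2 (G9a), a histone H3 lysine methyltransferase, had 205 CPM in B6 and 36.6 and 34.1 CPM in NOD (-2.54 ± 0.28, adjusted p = 0.0203). Cbx5 had 280 CPM in B6 and 144 and 116 CPM in NOD (-1.11 ± 0.26, adjusted p = 0.0499). No methylation was measured in these libraries.

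Of 49 other imprinted genes found in the table, 32 were tested, 2 were called higher (6.25%) and 1 lower (3.12%), both shares below those of all genes tested, with a median log2 fold change of -0.05. These were Herc3 and Trappc9, given above, and Chrac1, a histone-fold subunit of chromatin remodelling complexes and a neighbour of Trappc9, which was higher at 29.6 CPM in B6 and 94.7 and 96.6 CPM in NOD (1.69 ± 0.34, adjusted p = 0.0382). Trappc9, Peg13 and Chrac1 lie in one imprinted cluster, in which Trappc9 was thus lower and Chrac1 higher in NOD. Of the same cluster Ago2, an Argonaute protein, was not called, at 68.4, 76.1 and 57.6 CPM (-0.03 ± 0.35, adjusted p = 0.950), and Kcnk9, a potassium channel gene, had 0 counts in every library.

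The calls of Snrpn, Impact, Slc38a4, Kcnq1ot1 and Sfmbt2 held in 6 of 8 other fits and were lost without a filter on low counts and in limma-voom, where 0 of the listed genes were called while 18 and 15 of them had an unadjusted p under 0.05. Those of Phlda2, Gnas, Cd81 and Nespas were lost in more fits, among them the fit with upper-quartile factors.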

How the data were processed

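The 3 libraries were grouped by strain from the labels (1 B6, 2 NOD). The authors amplified cDNA with the SMART-Seq V4 kit, sequenced 50-base single-end reads and mapped these against mm10 using STAR (version 2.2.0c in the submitters' processing notes). HOMER then counted exon reads for 1 RefSeq transcript of each gene without regard to strand. The deposited table gives raw counts with no normalization, and reads carry no molecular identifiers, so intervals and floors cover counting error only.

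The fits used edgeR 4.0.16, limma 3.58.1 and DESeq2 1.42.0 under R 4.3.3, and tables were made with Python 3.11.15. Genes were kept by filterByExpr (minimum count 10), scaled by TMM and tested with edgeR's quasi-likelihood test (trended dispersion, prior count 0.125, 1 residual and 3.78 prior degrees of freedom, legacy set to false). Adjusted p-values are Benjamini-Hochberg values over all 14456 genes tested, and each test is two-sided. SE is that of the fit, derived from its F. FPKM was computed from the listed length and the scaled counts. Ratios against 1 to 3 counts carry an exact Clopper-Pearson 95% interval of the split of counts.

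Listed genes were accounted for in full. From the further lists, genes called were named, and genes that overlap a listed gene were named where their counts bear on it. The genes, lists and parental labels (from textbook knowledge) were chosen with earlier results of these data known, and so no set test was run. Promoters come from RefSeq (GRCm38.p6), where 34 of the 43 genes had a window. Coordinates are those of the deposited table, and the spans of all 43 genes overlap those of GENCODE M21. Alternatives were other scalings, no filter, DESeq2, limma-voom, the legacy edgeR test and leaving out each NOD library. An edgeR fit with its own dispersion estimate was added after seeing the data.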

Additional observations from a re-analysis of the deposited data

How the results depend on the processing

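Among 360 values of single genes under the alternatives, 314 kept their direction and side of the threshold (or moved by less than 1 SD), 24 kept the direction and lost the call, 18 kept the direction and gained it, and 4 untested values moved by over 1 SD of the NOD libraries (Nap1l5 and Jade1 without NOD 1, Ascl2 and Rian without NOD 2). The cause of each change was not tested. With upper-quartile factors 701 genes were called lower in place of 1069, and of the listed genes 3 were called higher and 2 lower, with Phlda2, Gnas, Cd81 and Nespas lost. With total counts only, Gnas was lost (adjusted p = 0.0514), the median of all genes fell from 0.26 to 0.07 and 47.8% of all calls were higher in NOD in place of 58.1%. With DESeq2 size factors Igf2r was added (adjusted p = 0.0495).

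Without a filter on low counts, where 16765 genes were tested, edgeR called 0 genes higher and 0 lower, of the listed genes 0 and 0, while 5568 genes and 18 of 41 listed genes had an unadjusted p under 0.05. The median of the listed genes was then 0.36, and their smallest adjusted p was 0.0649. Limma-voom called 0 genes and 0 listed genes in each direction, with 3924 genes and 15 listed genes at an unadjusted p under 0.05 and a smallest adjusted p among the listed genes of 0.0631. DESeq2 called 2365 genes higher and 1887 lower, and of the listed genes 5 higher and 11 lower, which added Igf2, Igf2r, Inpp5f, Jade1, Meg3, Peg10 and Slc22a18. The legacy edgeR test called 1612 genes lower (1994 higher) and 10 listed genes lower. With its own dispersion estimate, chosen after seeing the data, edgeR called 8 listed genes lower and lost Phlda2 (adjusted p = 0.0987), and 47.3% of all calls were higher in NOD.

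Leaving out 1 NOD library leaves no residual degrees of freedom and no test. The median of the listed genes was -0.31 without NOD 1 and 0.04 without NOD 2, so that its sign rests on NOD 2. Among genes not called, Nap1l5, Mest and Grb10 changed sign without NOD 1 (-1.80, -0.22 and -0.10) and Plagl1 without NOD 2 (0.71). The 9 genes called kept their direction in every alternative run. The B6 library could not be left out. No paired analysis was possible because the labels mark no pairs of libraries. The depth of B6 limits genes such as Phlda2, Ndn, Peg13 and Ascl2, which had at most 1 count in it.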

Other observations

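Outside the 43 genes, several imprinted genes that were not called had counts almost wholly in one strain or in single libraries, and they are named here after their values were seen. Mkrn3, a further paternally expressed gene of the Snrpn domain, was counted 0 times in the B6 library, 60 times in NOD 1 and 113 times in NOD 2. Rasgrf1, a guanine nucleotide exchange factor gene, had 0, 35 and 45 counts, and Qpct, a glutaminyl cyclase gene, had 2, 136 and 154. In the other direction, Asb4, near Peg10, had 48, 0 and 1 counts. Osbpl5, a further gene near the Kcnq1 domain, was counted 397 times in the B6 library, 0 times in NOD 1 and 80 times in NOD 2. Cpa4, near Mest, had counts in NOD 1 only (0, 38 and 0).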
